A study of Mus musculus with 6 samples.

Results

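The Cyp2c subfamily of cytochrome P450 enzymes was examined in liver mRNA of control and Blnc1 LKO mice after NASH diet feeding. The 10 genes described here, Cyp2c29, Cyp2c37, Cyp2c38, Cyp2c39, Cyp2c40, Cyp2c44, Cyp2c50, Cyp2c54, Cyp2c55 and Cyp2c70, were taken by gene symbol from the 17460 symbols of the deposited expression table, and all 10 were found. Libraries came from 6 livers of C57BL/6 mice aged 9 months, 3 control and 3 Blnc1 LKO, and every mouse had been fed the NASH diet (D09100301, rich in fructose, trans fats and cholesterol) for 24 weeks. Blnc1 is a long noncoding RNA, and Blnc1 LKO mice were Cas9 transgenic mice that received an adenovirus carrying a pair of Blnc1 sgRNAs, a virus that reaches mainly hepatocytes, so other liver cells can still carry the gene. For mice on a high-fat diet the study's controls were Cas9 transgenic mice given a GFP adenovirus. Whether the NASH diet controls were made in the same way, and the sex of the mice, are not given in the sources used here. The labels number the livers within each group and say no more of their origin, so p-values measure the spread between these samples.

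Cyp2c enzymes sit in the endoplasmic reticulum of hepatocytes and take electrons from P450 oxidoreductase. Several of them are epoxygenases, which convert arachidonic acid to epoxyeicosatrienoic acids, lipid mediators that soluble epoxide hydrolase then inactivates. The subfamily also hydroxylates fatty acids, retinoic acid, bile acids and drugs, and the mouse carries many more Cyp2c genes than humans do. Hepatocyte expression of these genes depends on HNF4A, C/EBP factors and the xenobiotic receptors CAR and PXR, and differs between males and females and between zones of the liver lobule.

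All 10 genes lie on chromosome 19 (GRCm38, the build also called mm10, GENCODE release M21). A cluster from 39007019 to 40187333 holds 9 of them, and Cyp2c44, which the annotation names Cyp2c23, lies 3818 kb further on, from 44005022 to 44029208 on the − strand. Cyp2c37, Cyp2c54 and Cyp2c50 are direct neighbours within 122 kb (39992424 to 40113950), with no other annotated gene between them. Each of the 10 genes has 9 exons in its longest protein-coding transcript. To show how closely the genes resemble each other at the level of reads, the 30 coding bases of the heme-binding loop, the most conserved part of a P450, are given below from the GENCODE transcripts, with bases that differ from Cyp2c29 in capitals. They run across the junction of exons 8 and 9, with 10 bases in exon 8.

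Cyp2c29: ttttcaacaggaaaacggatttgtgctgga
Cyp2c38: ttCtcaGcaggaaaacggGtttgtgctgga
Cyp2c39: ttCtcaGcaggaaaacgTGtttgtgctgga
Cyp2c37: ttCtcaacaggGaaacggatAtgtgcAgga
Cyp2c50: ttCtcaacaggaaaacggatAtgtgcAgga
Cyp2c54: ttCtcaacaggGaaacggatAtgtgcAgga
Cyp2c40: ttCtcaGcaggaaaacggatttgtgTGgga
Cyp2c55: ttCtcaaTaggaaaGcgAatGtgCgTGgga
Cyp2c70: ttCtcaGcaggaaGaAgAGCttgtATtgga
Cyp2c44: ttCtcCCTCggGaaGcgATCCtgtgTtggC

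The loop was identical in Cyp2c37 and Cyp2c54 and differed from Cyp2c29 at 13 bases in Cyp2c44. Over whole coding sequences, with gaps counted as differences, Cyp2c37 was 96.1% identical to Cyp2c50 and 95.1% to Cyp2c54, and Cyp2c50 was 95.2% identical to Cyp2c54. Cyp2c38 and Cyp2c39 were 94.2% identical, and Cyp2c29 was 89.1% and 89.5% identical to them. Cyp2c44 was the most distant, with 59.5% to 64.9% identity to the other 9. Of all windows of 50 bases in the transcript, 30.1% for Cyp2c37, 30.7% for Cyp2c50 and 25.7% for Cyp2c54 also occurred in a transcript of another Cyp2c gene. Reads that lie wholly within such windows cannot be assigned to 1 gene. The share was 72.1% for Cyp2c40, 11.4% for Cyp2c39, 7.45% for Cyp2c38, 2.08% for Cyp2c29, 0.514% for Cyp2c55, and 0 for Cyp2c44 and Cyp2c70. With windows of 100 bases it was 44.1% for Cyp2c40, 4.70% for Cyp2c37, 9.40% for Cyp2c50 and 7.59% for Cyp2c54, and 0 for the other members. Which share applies depends on the length of the reads. The values of Cyp2c40, and to a lesser degree those of Cyp2c37, Cyp2c50 and Cyp2c54, therefore rest on the parts of the transcripts that differ.

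The signal of each gene was the number of its reads over the size factor of that liver, referred to here as the normalised read count, and libraries held 65384969 to 89350181 reads on listed genes. The table listed no gene named Blnc1, so the deletion could not be measured in these data. The study itself reported a moderate reduction of Blnc1 in the liver after the sgRNA virus, larger in fractionated hepatocytes. Paqr9, the gene next to Blnc1, had 16972 ± 1827 in the control and 17986 ± 2196 in the Blnc1 LKO group (SD, n = 3). Xist, the RNA of the inactive X chromosome in females, was low in all 6 livers, with 8 to 22 reads. Its mean was 10.5 ± 2.14 in the control and 14.1 ± 5.71 in the Blnc1 LKO group (SD, n = 3). The sex of the mice was not tested further. Hepatocyte marker genes (Alb, Apoa1, Apob and others, 11 of 12 listed) were abundant in every liver, the lowest of their values being 30275. The comparison used limma on log2(value + 1) over 17297 genes, adjusted by the Benjamini-Hochberg method. Fold changes refer to log2(value + 1), which makes those of low genes too small. The test called 1 gene in all (0.00578% of those tested), which was not a Cyp2c gene, so 0 of the 10 genes passed an adjusted p under 0.05. In edgeR, which called 0.0116% of all genes, it was again 0 of the 10, with 4 of them at an unadjusted p under 0.05, as for 5.6% of all genes. In limma 3 of the 10 had an unadjusted p under 0.05 (5.68% of all tested genes), all higher in Blnc1 LKO livers (2.94%). The mean was higher in Blnc1 LKO livers for 7 of the 10 genes, as for 49.6% of all tested genes. The median log2 fold change of the 10 genes was 0.33, against −0.00099 over all tested genes. RNA of whole liver cannot separate a change in the number of hepatocytes from one in the RNA of each cell.

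The 7 members with higher means in Blnc1 LKO livers were Cyp2c54, Cyp2c37, Cyp2c50, Cyp2c44, Cyp2c29, Cyp2c40 and Cyp2c39, in falling order of log2 fold change from 1.46 to 0.08, and Cyp2c38, Cyp2c55 and Cyp2c70 had lower means. Replicate 1 of the Blnc1 LKO livers stood apart. It had the highest value of the 6 livers for 8 of the 10 genes, and it exceeded both other Blnc1 LKO livers for all 10. Replicate 2 was the lowest Blnc1 LKO liver for each of the 10 genes, with replicate 3 in between. Replicate 2 lay within the control range for 6 genes, below it for 3 and above it for 1. Fold changes of the members are therefore given with and without replicate 1.

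**Figure D1:**
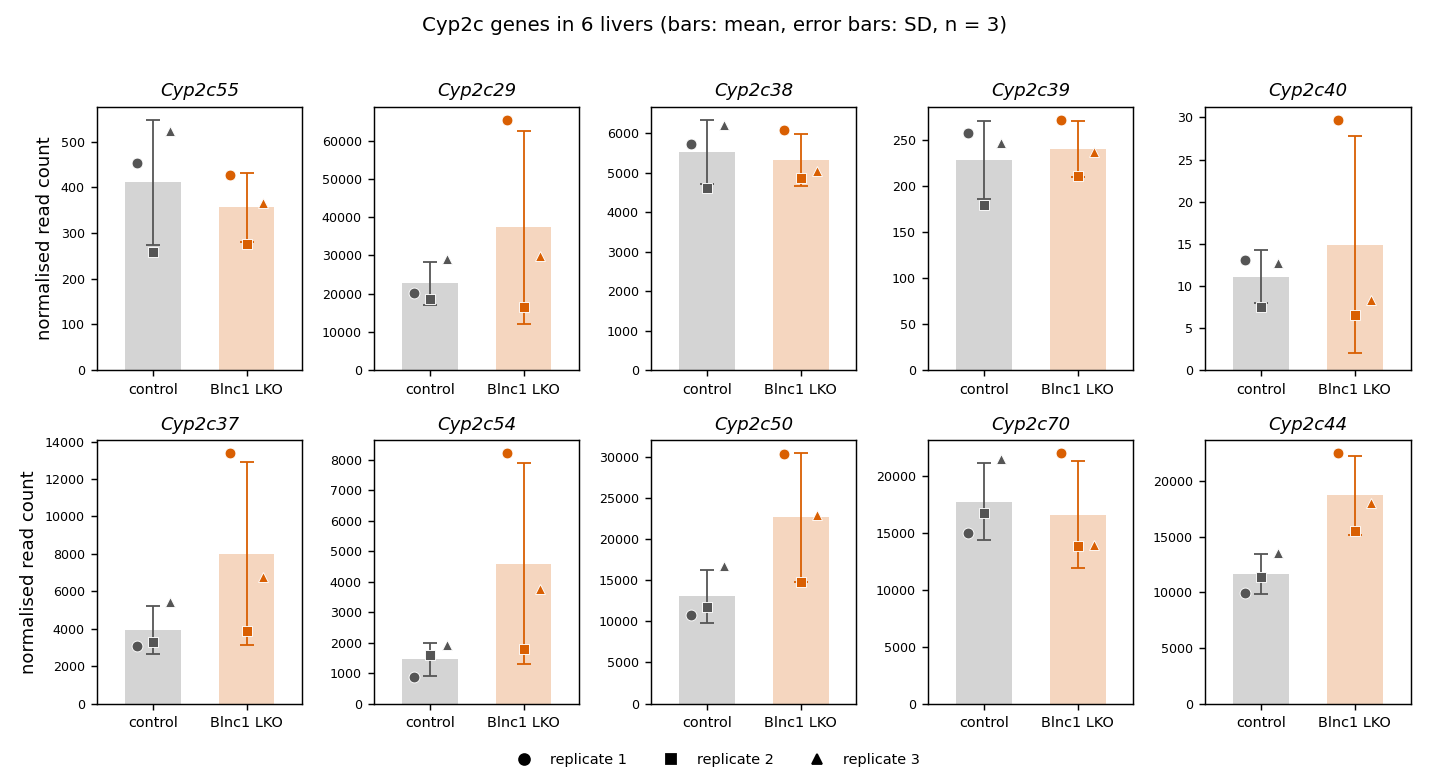
Normalised read counts of the 10 Cyp2c genes (y axes, linear and starting at 0, 1 scale per panel) in control and Blnc1 LKO livers, in chromosomal order. Points are livers with the replicate number as symbol, bars are means and error bars SD (n = 3). The groups do not overlap for Cyp2c44 only, and Blnc1 LKO replicate 1 lies far above the others for Cyp2c29, Cyp2c37 and Cyp2c54.

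Cyp2c44, an epoxygenase of liver, kidney and vascular endothelium, was alone among the 10 members in having groups that did not overlap. Its normalised read counts were 9952, 11402 and 13528 in the control group, and 22546, 15554 and 18075 in the Blnc1 LKO group. Every Blnc1 LKO liver lay above every control liver, which held in this direction for 5.35% of all tested genes and in the opposite direction for 5.28%. The mean was 11627 ± 1799 in the control and 18725 ± 3541 in the Blnc1 LKO group (SD, n = 3), a log2 fold change of 0.68 with a 95% interval of 0.35 to 1.01 (unadjusted p = 0.00134, adjusted p = 0.548, limma). Without replicate 1 of the Blnc1 LKO livers the log2 fold change was 0.54 (unadjusted p = 0.00314, limma) and the groups still did not overlap. The call for Cyp2c44 differed between tests, with an adjusted p of 0.00147 in DESeq2, the study's own tool, and of 0.543 in edgeR, both on recovered reads. DESeq2 called 0.486% of all genes. Cyp2c44 shares no window of 50 bases with an annotated transcript of another Cyp2c gene. Whether any read of a relative was counted for it was not tested.

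Cyp2c50, Cyp2c54 and Cyp2c37 are the direct neighbours in the cluster. Cyp2c50 and Cyp2c54 are epoxygenases, and Cyp2c37 makes hydroxylated arachidonic acid. Cyp2c50 had 10716, 11702 and 16725 in the control group, and 30317, 14715 and 22847 in the Blnc1 LKO group. Replicates 1 and 3 of the Blnc1 LKO livers exceeded all controls, and replicate 2 lay within their range. The log2 fold change was 0.76 (95% interval 0.19 to 1.34, adjusted p = 0.818, limma) and 0.52 without replicate 1.

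Cyp2c54 had the largest fold change of the 10 genes. Its normalised read counts were 872, 1588 and 1928 in the control group, and 8226, 1792 and 3753 in the Blnc1 LKO group. Replicate 2 again lay within the control range. The mean was 1463 ± 539 in the control and 4590 ± 3298 in the Blnc1 LKO group (SD, n = 3), a log2 fold change of 1.46 (95% interval 0.32 to 2.59, adjusted p = 0.824, limma), which was 0.90 without replicate 1. Cyp2c37 showed the same order of livers, with 3079, 3283 and 5423 in the control group, and 13386, 3863 and 6783 in the Blnc1 LKO group. Its log2 fold change was 0.89 (95% interval −0.018 to 1.80, adjusted p = 0.879, limma). It was 0.43 without replicate 1 and 1.33 without replicate 2 (unadjusted p = 0.00448, adjusted p = 0.261, limma). As reads can be lost or split between these relatives, their values were also summed. The sum was 14667, 16574 and 24075 in the control group, and 51929, 20370 and 33383 in the Blnc1 LKO group, 1.91 times as high in the mean of Blnc1 LKO livers, and the groups overlapped by replicate 2 alone. The ratio of Cyp2c54 to Cyp2c50 within a liver was 0.0813, 0.136 and 0.115 in the control group, and 0.271, 0.122 and 0.164 in the Blnc1 LKO group, so Cyp2c54 was further above control than its neighbour in replicates 1 and 3.

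Cyp2c29, a main hepatic epoxygenase of the mouse, had the highest level of the subfamily. Its normalised read counts were 20293, 18578 and 29153 in the control group, and 65543, 16516 and 29987 in the Blnc1 LKO group. Replicate 1 was far above every other liver, replicate 2 was the lowest of all 6, and replicate 3 lay close to the highest control. The log2 fold change of 0.52 (95% interval −0.44 to 1.48, adjusted p = 0.971, limma) came to 0.0013 without replicate 1, so the higher mean of Cyp2c29 rested on that liver. Without replicate 2, the lowest, it was 1.00 (unadjusted p = 0.0176, adjusted p = 0.360, limma). The annotation of the pseudogene Cyp2c53-ps overlaps the start of the Cyp2c29 gene on the same strand. It was listed at 17.9 in replicate 1, 0 in replicate 2 and 6.68 in replicate 3 of the Blnc1 LKO livers. In control livers it was at 0.932, 0 and 0, and it was too low to be tested. Of the Cyp2c29 windows of 50 bases, 34 also occurred in a transcript of Cyp2c53-ps. Whether reads of Cyp2c29 were counted for the pseudogene was not tested.

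**Figure D2:**
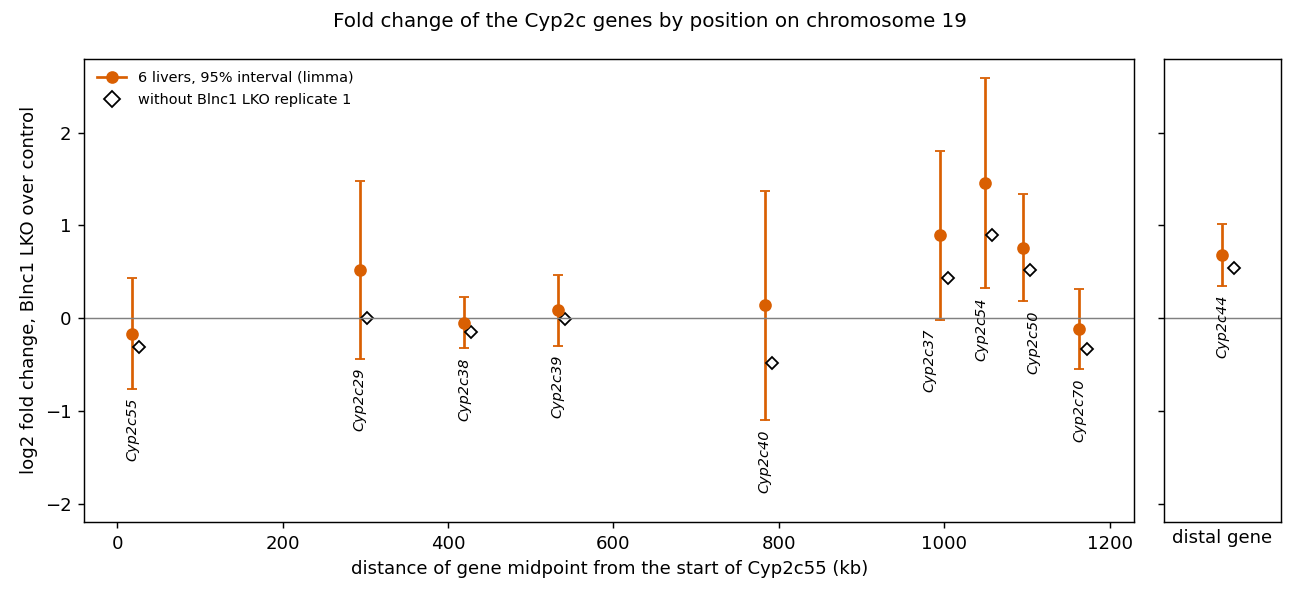
Log2 fold change of Blnc1 LKO over control (y axis) against the distance of the gene midpoint from the start of Cyp2c55 in kb (x axis), with the distant Cyp2c44 in a panel of its own. Filled points with bars are limma estimates from 6 livers with 95% intervals, and open diamonds leave out Blnc1 LKO replicate 1. Intervals lie above 0 for Cyp2c54, Cyp2c50 and Cyp2c44, and the diamond of Cyp2c29 lies at 0.0013.

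Cyp2c38 and Cyp2c39, the closest relatives of Cyp2c29, had smaller fold changes, and their difference from Cyp2c29 was not tested. Cyp2c38, an epoxygenase, had 5733, 4616 and 6218 in the control group, and 6071, 4859 and 5044 in the Blnc1 LKO group. Its groups overlapped, with a log2 fold change of −0.05 (95% interval −0.32 to 0.23, adjusted p = 0.989, limma) that was −0.15 without replicate 1. Cyp2c39, an epoxygenase that also hydroxylates retinoic acid, had 258, 180 and 247 in the control group, and 273, 211 and 237 in the Blnc1 LKO group (log2 fold change 0.08, 95% interval −0.30 to 0.46). Without replicate 1 it was −0.011, so its sign rested on that liver. Differences within these intervals remain possible. Within a liver, the ratio of Cyp2c29 to Cyp2c38 reads was 3.54, 4.02 and 4.69 in the control group, and 10.8, 3.40 and 5.95 in the Blnc1 LKO group, so it overlapped through replicate 2.

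Cyp2c70 makes muricholic acids, bile acids typical of the mouse, and is not known mainly as an epoxygenase. It had 15040, 16742 and 21526 in the control group, and 22038, 13898 and 13909 in the Blnc1 LKO group. Replicate 1 was the highest of all 6 livers and replicates 2 and 3 were the lowest, so the log2 fold change of −0.12 (95% interval −0.55 to 0.32, adjusted p = 0.981, limma) joins opposite deviations. Without replicate 1 it was −0.34 (unadjusted p = 0.0383, adjusted p = 0.864, limma). The ratio of Cyp2c50 to Cyp2c70, which does not depend on the scaling between livers and was chosen after the values were seen, was 0.713, 0.699 and 0.777 in the control group, and 1.38, 1.06 and 1.64 in the Blnc1 LKO group. Here replicate 2 lay above the controls together with the other Blnc1 LKO livers. The ratio was 1.86 times as high in the mean of Blnc1 LKO livers. No test was made of a ratio picked in this way.

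The remaining members were low. Cyp2c55, a fatty acid hydroxylase of colon and induced liver, had 452, 258 and 523 in the control group, and 427, 276 and 366 in the Blnc1 LKO group (log2 fold change −0.17, 95% interval −0.76 to 0.43), and without replicate 1 its log2 fold change was −0.31. Cyp2c40, which hydroxylates arachidonic acid, was the lowest, with 13.1, 7.46 and 12.8 in the control group, and 29.8, 6.58 and 8.36 in the Blnc1 LKO group. Its log2 fold change of 0.14 had a 95% interval of −1.10 to 1.37 and changed sign to −0.49 without replicate 1. A difference within this interval could not be detected at such low counts.

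**Figure D3:**
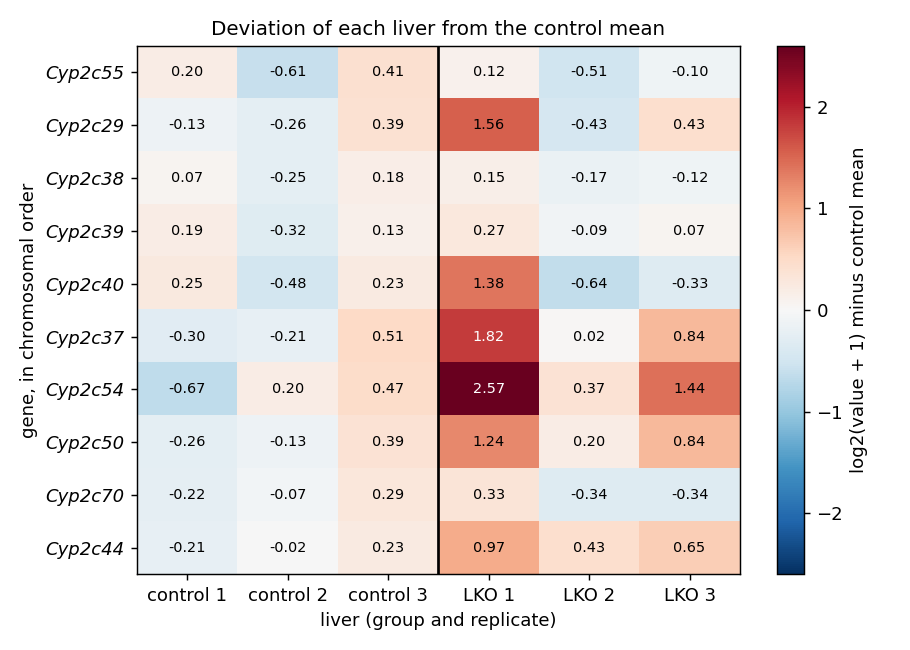
Log2(value + 1) of each Cyp2c gene (rows, chromosomal order) in each liver (columns) minus the mean of the 3 control livers, as colour and number. The column of Blnc1 LKO replicate 1 is the reddest, with 2.57 for Cyp2c54, 1.82 for Cyp2c37 and 1.56 for Cyp2c29, and Cyp2c44 is positive in all 3 Blnc1 LKO livers.

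Levels of different genes were compared per kb of transcript. In control livers Cyp2c29 was highest, with 12717 ± 3183 normalised reads per kb (SD, n = 3), followed by Cyp2c70 with 10349 ± 1959, Cyp2c50 with 7201 ± 1778 and Cyp2c44 with 6069 ± 939. The ranges of neighbours among these 4 overlapped between livers, but within each control liver the 4 genes stood in this order. Cyp2c37 with 2154 ± 712 and Cyp2c38 with 1925 ± 286 came next and overlapped each other. Below them were Cyp2c54 with 819 ± 302, then Cyp2c55 with 206 ± 68.8 and Cyp2c39 with 126 ± 23.3, which overlapped, and last Cyp2c40 with 6.15 ± 1.75. Of the summed reads per kb of the 10 genes, Cyp2c70 took 24.5%, 26.3% and 24.2% in the control group, and 13.9%, 20.9% and 14.8% in the Blnc1 LKO group. Cyp2c50 took 16.5%, 17.4% and 17.8% in the control group, and 18.1%, 21% and 23.0% in the Blnc1 LKO group. Cyp2c54 took 1.36%, 2.40% and 2.08% in the control group, and 4.98%, 2.59% and 3.83% in the Blnc1 LKO group. The shares of Cyp2c70, Cyp2c50 and Cyp2c54, named after their values were seen, did not overlap between groups, and those of the other members did. As the shares of a liver make up a fixed whole, a share can fall when other members rise. The counts of Cyp2c70 themselves overlapped between groups, and the shares were not tested. Cyp2c29 took 31.8%, 28.1% and 31.6% in the control group, and 39.7%, 24.0% and 30.7% in the Blnc1 LKO group, and overlapped.

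**Figure D4:**
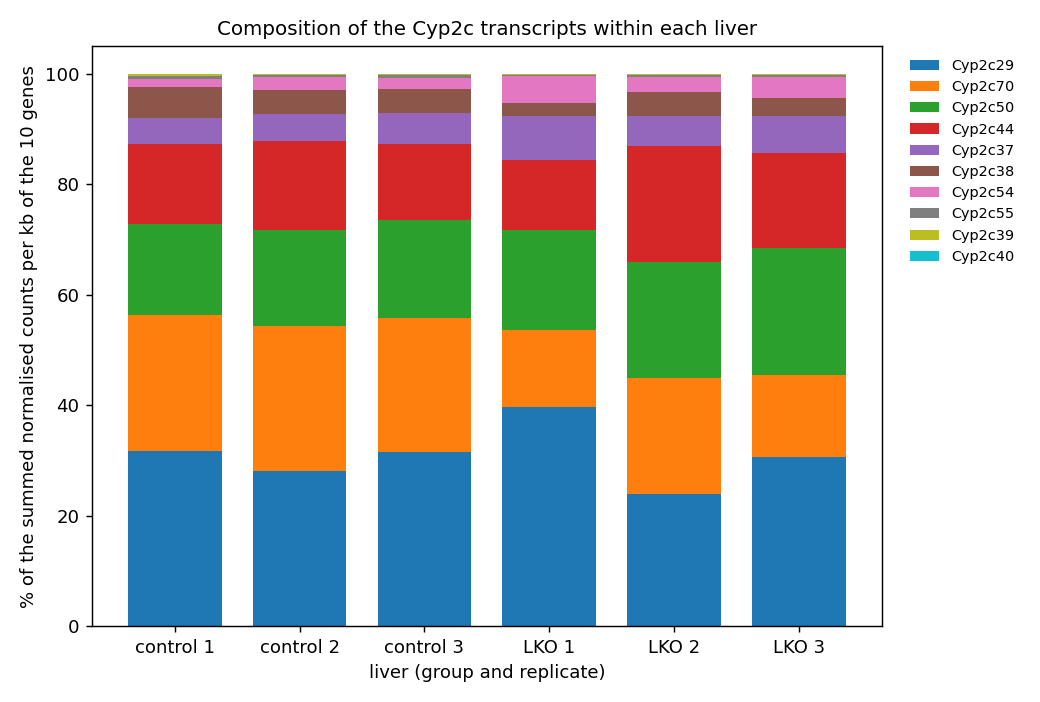
Share of each Cyp2c gene in the summed normalised reads per kb of the 10 genes (y axis, %) in each liver (x axis, 3 control and 3 Blnc1 LKO livers, 1 bar each). The Cyp2c70 segment is 24.2% to 26.3% in control and 13.9% to 20.9% in Blnc1 LKO livers, whereas the Cyp2c50 segment is wider in every Blnc1 LKO liver than in any control liver.

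The table held 5 other Cyp2c symbols. Cyp2c67 (7653 ± 571 in control, 7097 ± 964 in Blnc1 LKO livers, SD, n = 3 each) and Cyp2c68 (5501 ± 1091 and 4991 ± 979) lie between Cyp2c39 and Cyp2c40 in the cluster. Their log2 fold changes were −0.11 and −0.14 with overlapping groups. Cyp2c69 was low, at 5.73 ± 0.693 and 10.1 ± 7.96. Because Cyp2c40, Cyp2c67, Cyp2c68 and Cyp2c69 share many windows, their values were summed. The sum ranged from 11408 to 14712 in control and from 10908 to 14305 in Blnc1 LKO livers. Cyp2c65, next to Cyp2c55, had 3 reads over the control livers and 26 over the Blnc1 LKO livers, a ratio of 8.24 after scaling with an exact 95% interval of 2.53 to 42.6 that covers counting error only. Its log2 fold change was 2.16 (unadjusted p = 0.00138, adjusted p = 0.548, limma). Its groups did not overlap, as for 5.35% of all tested genes in this direction. Of its windows of 50 bases, 20.2% also occurred in a transcript of Cyp2c66.

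Promoters are shown for Cyp2c37 and Cyp2c50, which had the same order of livers, beside Cyp2c29 and the adjacent Cyp2c70. RefSeq promoter windows (GRCm38.p6) were matched for 8 of the 10 members, not for Cyp2c44 and Cyp2c54. Stretches from 200 to 51 bases before the RefSeq start site follow, at chr19:39992224-39992373 on the + strand for Cyp2c37, chr19:40089479-40089628 on the + strand for Cyp2c50, chr19:39286885-39287034 on the + strand for Cyp2c29 and chr19:40187337-40187486 on the − strand for Cyp2c70. Each reads 5′ to 3′ along its gene. Capitals mark matches to CAAAGTNCA, the HNF4-type motif CAAAGTCCA with 1 base left free, and to AGGTCA, the half-site of nuclear receptors.

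Cyp2c37: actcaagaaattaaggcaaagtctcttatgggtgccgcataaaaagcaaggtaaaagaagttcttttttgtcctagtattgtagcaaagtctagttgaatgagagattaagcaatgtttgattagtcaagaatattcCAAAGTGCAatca
Cyp2c50: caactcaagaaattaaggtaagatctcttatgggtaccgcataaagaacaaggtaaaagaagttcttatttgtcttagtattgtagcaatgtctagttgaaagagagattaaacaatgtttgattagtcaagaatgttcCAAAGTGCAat
Cyp2c29: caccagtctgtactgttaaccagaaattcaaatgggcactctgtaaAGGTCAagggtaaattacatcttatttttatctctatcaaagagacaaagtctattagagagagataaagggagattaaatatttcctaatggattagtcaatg
Cyp2c70: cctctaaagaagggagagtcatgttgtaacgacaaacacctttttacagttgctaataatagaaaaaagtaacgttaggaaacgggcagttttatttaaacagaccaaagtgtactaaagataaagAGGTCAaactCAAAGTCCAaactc

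The windows of Cyp2c37 and Cyp2c50 were 86.6% identical and those of Cyp2c50 and Cyp2c70 48.8%. Both strands were searched. CAAAGTCCA occurred, on the strand of the gene, in the windows of Cyp2c40 and Cyp2c70 among the members. It also occurred in those of Cyp2c65, Cyp2c67, Cyp2c68 and Cyp2c69 among the other listed genes, and in 0.475% of all 32851 promoter windows. Cyp2c37 and Cyp2c50 had CAAAGTGCA instead, 63 and 61 bases before the start. The looser CAAAGTNCA, chosen after these windows had been read and covering every match of CAAAGTCCA, occurred in 1.41% of all windows. AGGTCA was found in the windows of Cyp2c29 and Cyp2c70 and in 16.3% of all. Of 2 RefSeq windows of Cyp2c39, the upstream one held it and the one at the GENCODE start did not. These matches describe the sequences, and binding was not measured.

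The partners of the epoxygenases were described next. Of 18 tested genes for arachidonic acid release, electron supply, Cyp2j epoxygenases and epoxide hydrolases, 0 passed the adjusted p and 1 had an unadjusted p under 0.05, a share close to the 5.68% over all tested genes. That gene was Ephx2, the soluble epoxide hydrolase, with 63758, 69390 and 65320 in the control group, and 85291, 67363 and 80631 in the Blnc1 LKO group (log2 fold change 0.23, adjusted p = 0.873, limma). Replicates 1 and 3 exceeded the controls, and replicate 2 did not. Por, the electron donor, had 38181 ± 4668 in the control and 38164 ± 2793 in the Blnc1 LKO group (SD, n = 3). Log2 fold changes of the list ran from −0.63 to 0.90 with a median of 0.05.

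Of 23 tested transcription factors that act on Cyp2c genes, 3 had an unadjusted p under 0.05 and all were lower in Blnc1 LKO livers, against 2.74% of all tested genes in that direction. They were Cebpb (log2 fold change −0.22), Vdr (−0.77) and Bcl6 (−0.52), none of which passed the adjustment (adjusted p from 0.824 to 0.840, limma). The value of Cebpb was −0.14 without Blnc1 LKO replicate 1, and that of Bcl6 −0.34 without control replicate 1. Vdr, the vitamin D receptor, was low, with 28.9, 38.4 and 36.2 in the control group, and 17.9, 16.9 and 25.1 in the Blnc1 LKO group, and its groups did not overlap. Stat5b, the growth hormone signal transducer, had groups that did not overlap over a narrow range. It had 4080 ± 66.7 in the control and 3845 ± 72.5 in the Blnc1 LKO group (SD, n = 3). Its log2 fold change was −0.085 (unadjusted p = 0.114, adjusted p = 0.930, limma). Vdr and Stat5b were the 2 of 23 factors with groups apart, both lower, beside 5.28% of all tested genes in that direction. Nr1i3, which encodes CAR, had 6639, 6023 and 7629 in the control group, and 9046, 6561 and 6804 in the Blnc1 LKO group. Replicate 1 was again the highest.

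Of 11 genes induced through CAR and PXR, 3 were higher and 1 lower at an unadjusted p under 0.05 (2.94% and 2.74% of all tested genes), and 0 passed the adjustment. The higher genes were Ugt1a1, a bilirubin glucuronosyltransferase (log2 fold change 0.70), Cyp3a11, the main PXR-induced P450 (0.48), and Ces2a, a carboxylesterase (0.46), and the lower gene was the stress gene Gadd45b (−0.36). Adjusted p-values were 0.781 for Ugt1a1, 0.840 for Cyp3a11 and Ces2a, and 0.860 for Gadd45b (limma). Cyp3a11 had a log2 fold change of 0.29 without control replicate 2, and without Blnc1 LKO replicate 1 Ces2a had 0.28 and Gadd45b −0.22. Cyp2b10, the classical CAR target, stayed low, with 9.32, 6.39 and 21.3 in the control group, and 38.1, 8.46 and 24.2 in the Blnc1 LKO group. Of 11 genes of bile acid synthesis, the pathway that Cyp2c70 serves, 2 were higher at an unadjusted p under 0.05 (2.94% of all tested genes). They were Cyp27a1, sterol hydroxylase of the acidic pathway (log2 fold change 0.18), whose groups did not overlap, as for 5.35% of all tested genes in this direction, and Cyp7b1, oxysterol hydroxylase (0.65), with adjusted p-values of 0.851 and 0.824 (limma). Cyp7a1, the rate-limiting enzyme, and Cyp8b1 had log2 fold changes of −0.05 and 0.11.

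Lists of other hepatocyte genes were summed in each liver. Of all tested genes, 49.6% had a higher mean in Blnc1 LKO livers, and 2.94% were higher and 2.74% lower at an unadjusted p under 0.05. Pericentral hepatocyte genes (14 of 16 higher, median log2 fold change 0.18, 5 at an unadjusted p under 0.05) summed to 945748 to 1010993 in control and 1025496 to 1349364 in Blnc1 LKO livers, with replicate 1 highest and replicate 2 lowest of the latter. Among them Cyp2e1, a large part of these sums (control mean 487064), had a log2 fold change of 0.40 and Glul 0.21. As a mean log2 deviation of its genes from the control mean, the pericentral list had 0.026, −0.015 and −0.011 in the control group. It had 0.331, 0.020 and 0.242 in the Blnc1 LKO group, so by this measure the groups overlapped through replicate 2. Periportal genes had a median log2 fold change of −0.15 (11 of 15 lower). Male-biased liver genes (18 of 18 higher, median 0.74, 12 at an unadjusted p under 0.05) summed to 823905, 1175458 and 883922 in the control group, and 1479344, 1180635 and 1577673 in the Blnc1 LKO group. In these sums, of which Mup20 was a large part (control mean 654307), replicate 3 was the highest Blnc1 LKO liver and replicate 2 the highest control. The mean log2 deviation of the list from the control mean was −0.23, 0.49 and −0.26 in the control group, and 1.32, 0.50 and 1.17 in the Blnc1 LKO group. By that measure the Blnc1 LKO livers stood in the same order as for the Cyp2c genes, and replicate 2 was still the highest control. Female-biased genes had a median of 0.17 (12 of 17 higher). The 11 hepatocyte markers summed to 6573434 to 7113563 in control livers and, in Blnc1 LKO livers, to 7881042 in replicate 1, 6732169 in replicate 2 and 6618348 in replicate 3.

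The stellate cell list, with 8 of 10 genes lower, summed to 100334 to 109796 in control livers and to 85015, 100418 and 85409 in Blnc1 LKO livers. Of its genes 4 were lower at an unadjusted p under 0.05, against 2.74% of all tested genes. Replicates 1 and 3 of the Blnc1 LKO livers, with the most Cyp2c RNA, had the lowest sums, but control replicate 3, next in Cyp2c RNA, had the highest. Endothelial markers (7 of 9 lower) summed to 38890 to 40733 in control and 36642 to 38393 in Blnc1 LKO livers. Of these 9 markers, 4 were lower at an unadjusted p under 0.05 (2.74% of all tested genes). Groups did not overlap for 3 of them, all lower (5.28% of all tested genes). Of 12 macrophage markers, 7 had higher and 5 lower means, with a median log2 fold change of 0.04 and a lowest of −0.54. At an unadjusted p under 0.05, 5 were higher and 1 lower (2.94% and 2.74% of all tested genes). Groups did not overlap for 2 markers, both higher, as for 5.35% of all tested genes in this direction. These were Adgre1 and Marco, named after their values were seen, and the log2 fold change of Marco was 3.03, the highest of the list (adjusted p = 0.577, limma). The markers of highest mean, Lyz2, Cd5l and C1qa, had log2 fold changes of 0.05, 0.02 and −0.03. The mean log2 deviation of the macrophage markers from the control mean was −0.04, 0.16 and −0.12 in the control group, and 0.47, 0.24 and 0.49 in the Blnc1 LKO group, whereas their sums, set by the most abundant markers, overlapped (95438 to 101361 and 97537 to 105269). Cholangiocyte (5 of 7 lower) and lymphocyte markers (6 of 9 lower) had median log2 fold changes of −0.04 and −0.02. No macrophage, cholangiocyte or lymphocyte marker was at 0 in any liver. The part of these lists in the Cyp2c result was not tested.

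Among 12477 genes outside the subfamily with a mean value of at least 100, the 5 whose profile over the 6 livers was closest to the mean profile of the 10 members were 1500017E21Rik, AW549542, Cyp4a10, Cyp2f2 and Ces2a. Likeness was the root mean square difference of centred log2(value + 1), which ranged from 0.10 for 1500017E21Rik to 0.15 for Ces2a, against 0.43 for a flat profile. Cyp4a10, a fatty acid omega-hydroxylase, had 11565, 8461 and 13056 in the control group, and 23522, 8829 and 12165 in the Blnc1 LKO group. Cyp2f2, a P450 of periportal hepatocytes, had 30931, 25124 and 31809 in the control group, and 52381, 25291 and 39581 in the Blnc1 LKO group. Their likeness to the members follows from how they were chosen.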

How the data were processed

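Liver mRNA of 3 control and 3 Blnc1 LKO mice was measured by polyA-selected RNA-seq. The submitters' processing notes name mm10, FastQC, STAR, HTSeq and DESeq2. The authors mapped with STAR, counted with HTSeq and tested with DESeq2. The deposited signal has the form of gene reads divided by 1 factor per liver, which was read from the values. The versions, the gene annotation and the strand setting of the counting are not given in the sources used here. In every liver 100% of values were whole multiples of 1 read (tolerance 0.01), from which reads were recovered. Columns named for wild type and knockout were matched to control and LKO titles of the same number.

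log2(value + 1) was modelled in limma (version 3.58.1, R 4.3.3), using eBayes with a trend and no covariates. Genes entered when 3 livers or more reached a value of 1. P-values were adjusted by Benjamini-Hochberg over all genes. The members, gene lists and tests were chosen with earlier results of these data known. Named genes are the members, other Cyp2c symbols, genes of the partner, regulator, CAR and PXR, and bile acid lists with an unadjusted p under 0.05 or with groups apart at a mean of at least 100, Ephx2, Por, Nr1i3, Cyp2b10, Cyp7a1 and Cyp8b1, up to 3 genes of highest mean from other lists, and the 5 genes of closest profile. Alternatives were edgeR (4.0.16, TMM, quasi-likelihood test) and DESeq2 (1.42.0) on recovered reads, pseudocounts of 0.1 and 10, no filter, at least 10 reads in every liver, quantile normalization, the replicate number as a block, and each liver left out. The fits were tested on simulated data. Positions and transcripts came from GENCODE M21 and promoters from RefSeq, and identities were computed with Biopython (1.88).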

Additional observations from a re-analysis of the deposited data

How the results depend on the processing

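With DESeq2 on recovered reads 1 member, Cyp2c44, passed the adjusted p. It did not pass in the 13 other alternatives. Over all genes the count of 1 became 84 with DESeq2, 2 with edgeR, with a pseudocount of 10 and without a filter, 0 with the replicate block, and 0 to 13 when 1 liver was omitted, the highest without Blnc1 LKO replicate 2. The number of members with a higher mean stayed between 5 and 10, and their median log2 fold change ranged from −0.0048 without Blnc1 LKO replicate 1 to 0.67 without Blnc1 LKO replicate 2, and was 0.156 without control replicate 2.

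Signs were steady in all alternatives for Cyp2c37, Cyp2c44, Cyp2c50 and Cyp2c54. The sign of Cyp2c29 did not reverse either, but its log2 fold change was 0.0013 without Blnc1 LKO replicate 1. Leaving out 1 liver reversed smaller log2 fold changes, which ranged from −0.17 to 0.043 for Cyp2c38, −0.079 to 0.18 for Cyp2c39, −0.49 to 0.52 for Cyp2c40, −0.47 to 0.039 for Cyp2c55, −0.34 to 0.031 for Cyp2c70, −0.074 to 0.96 for Cyp2c69, −0.061 to 0.10 for Por, −0.011 to 0.23 for Nr1i3, −0.27 to 0.12 for Cyp7a1 and −0.024 to 0.30 for Cyp8b1. Por was −0.0018 with edgeR and −6.3e-04 with DESeq2. The cause of these changes was not tested. Cyp2c40 was not tested under the filter of 10 reads.

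Deviations of same-numbered livers from their group means had correlations across genes of −0.06, −0.02 and −0.11. Those of differently numbered pairs ran from −0.05 to 0.11. Such correlations cannot show whether same-numbered livers had a common origin, which the labels do not state. With the replicate block 0 members passed.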
